A study of Homo sapiens with 4 samples.

Results

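Ferritin and the other messages of the iron-responsive element system form a set of 7 genes, out of 17064 rows in the deposited table. They were picked by symbol, and each has a single row. FTL and FTH1 encode the light and heavy chains of ferritin, TFRC the transferrin receptor, SLC11A2 the iron importer DMT1, SLC40A1 the iron exporter ferroportin, and ACO1 and IREB2 the iron regulatory proteins IRP1 and IRP2. FTL was already known to have one of the highest changes in translation efficiency when the set was chosen, so its values are a description.

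An iron-responsive element is a short hairpin in an mRNA that IRP1 and IRP2 bind when the cell is short of iron. Bound in the 5′ untranslated region of ferritin and ferroportin messages, the proteins block the start of translation, whereas bound in the 3′ untranslated region of TFRC they protect the message from decay. With ample iron IRP1 carries an iron-sulfur cluster and works as a cytosolic aconitase, and IRP2 is degraded through the ubiquitin ligase subunit FBXL5.

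The labels give all cells as KYSE-150, an established human line from a squamous cell carcinoma of the esophagus, grown in DMEM with serum. The 4 libraries are polyribosome RNA and input RNA of cells with a stable short hairpin RNA against NSUN6, an RNA 5-methylcytosine methyltransferase, and the same fractions of control cells with normal NSUN6, with 1 library per group. All cells received cycloheximide, which holds ribosomes on their messages, and polyribosomes were pelleted through a 30% sucrose cushion. The labels name neither the hairpin sequence nor whether the knockdown line is 1 clone. No difference below has a replicate check, no p-value was computed, and values are FPKM (fragment counts scaled to transcript length and library size), and the read depth behind them is unknown.

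In polyribosome RNA NSUN6 had 0.38 FPKM in knockdown and 10.13 FPKM in control cells. In input it had 3.83 FPKM in knockdown and 8.85 FPKM in control cells. The knockdown libraries also stood apart in epithelial markers. KRT5 of squamous epithelium was at 0.70 and 0.45 FPKM in their polyribosome and input RNA against 1162 and 906 FPKM in control, and KRT14 at 3.92 and 3.83 against 87.7 and 64.8 FPKM. KRT19 was at 1973 and 1488 FPKM against 1.02 and 0.07 FPKM, and TP63, the squamous transcription factor, at 2.16 and 23.7 against 28.8 and 30.2 FPKM. SOX2, another factor of squamous epithelium, ran the other way, at 8.28 and 39.5 against 0.27 and 0.31 FPKM. The other 3 of the 8 epithelial markers differed less, with KRT6A at 40.0 and 34.2 against 39.8 and 29.5 FPKM, KRT8 at 2547 and 1941 against 2120 and 1503 FPKM and KRT18 at 2185 and 1756 against 2073 and 1616 FPKM. SOX2 and these keratins are named after their values were seen. Of 10 markers of leukocytes, macrophages, endothelium, fibroblasts and red cells, 0 had a mean of 5 FPKM, and they summed to 5.14 and 5.53 FPKM against 4.34 and 3.84 FPKM. A second line of column names inside the table calls the knockdown columns K30 with a hairpin against Mettl1, and lists input before polyribosome RNA, the reverse of the header. The header has the sample labels' names and was followed, so these libraries are called knockdown-labelled. If those names hold, the knockdown-labelled and control columns come from different cell lines, and a difference between lines and an effect of the hairpin cannot be told apart. What part the keratin differences have in the iron results was not tested.

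The elements themselves were read from GENCODE 29 transcripts (GRCh38), because they define the set and stand at opposite ends of its messages. The search, on the sense strand, was for an unpaired C followed by 5 bases, the loop CAGTGN with a last base other than G, and 5 bases that pair with the first 5, G with T allowed. The unpaired C and the loop are in capitals.

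FTL: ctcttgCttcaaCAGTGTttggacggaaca
FTH1: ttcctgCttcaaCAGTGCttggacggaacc
SLC40A1: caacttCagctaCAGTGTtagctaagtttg
TFRC element 1: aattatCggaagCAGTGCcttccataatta
TFRC element 2: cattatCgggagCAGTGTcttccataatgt
TFRC element 3: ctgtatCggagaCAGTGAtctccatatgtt
TFRC element 4: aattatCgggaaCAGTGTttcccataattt

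The FTL window lies at chr19:48965335-48965364 on the plus strand, in a 5′ untranslated region of 207 bases. That of FTH1 lies at chr11:61967573-61967602 on the minus strand, in one of 235 bases, and that of SLC40A1 at chr2:189580660-189580689 on the minus strand, in one of 427 bases. The FTL and FTH1 windows are identical in 26 of 30 bases. The TFRC hairpins that match lie on the minus strand of chromosome 3 in a 3′ untranslated region of 2661 bases. They are at chr3:196050978-196051007, chr3:196050574-196050603, chr3:196050509-196050538 and chr3:196050462-196050491. Hairpins that depart from the pattern would be missed. The pattern was found in the 5′ untranslated region of 12 of 19669 protein-coding genes (0.0610%). It was found in the coding region of 77 (0.391%) and in the 3′ untranslated region of 81 (0.412%). TFRC was the 1 gene of those 81 with 4 matches. No match was found for SLC11A2, ACO1 or IREB2, which says only that these letters are not in the 1 transcript searched per gene.

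Both ferritin messages were abundant in every library, and their position between polyribosomes and input was opposite in the 2 kinds of cells. FTL, the light chain that promotes nucleation of the iron core, was at 7781 FPKM in polyribosome and 775 FPKM in input RNA of knockdown-labelled cells, against 640 and 2285 FPKM in control cells. It was the 2nd of 17064 rows by FPKM in knockdown-labelled polyribosome RNA and the 111th in knockdown-labelled input, against the 136th and the 26th in control. FTH1, the heavy chain with the ferroxidase site, was at 4443 FPKM in polyribosome and 1083 FPKM in input RNA of knockdown-labelled cells, against 1906 and 4810 FPKM in control cells. It ranked 11th and 73rd in the knockdown-labelled libraries and 29th and 5th in the control libraries. For either chain the highest and the lowest of the 4 values belong to different cells, and the 2 knockdown-labelled values overlap the 2 control values.

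**Figure D1:**
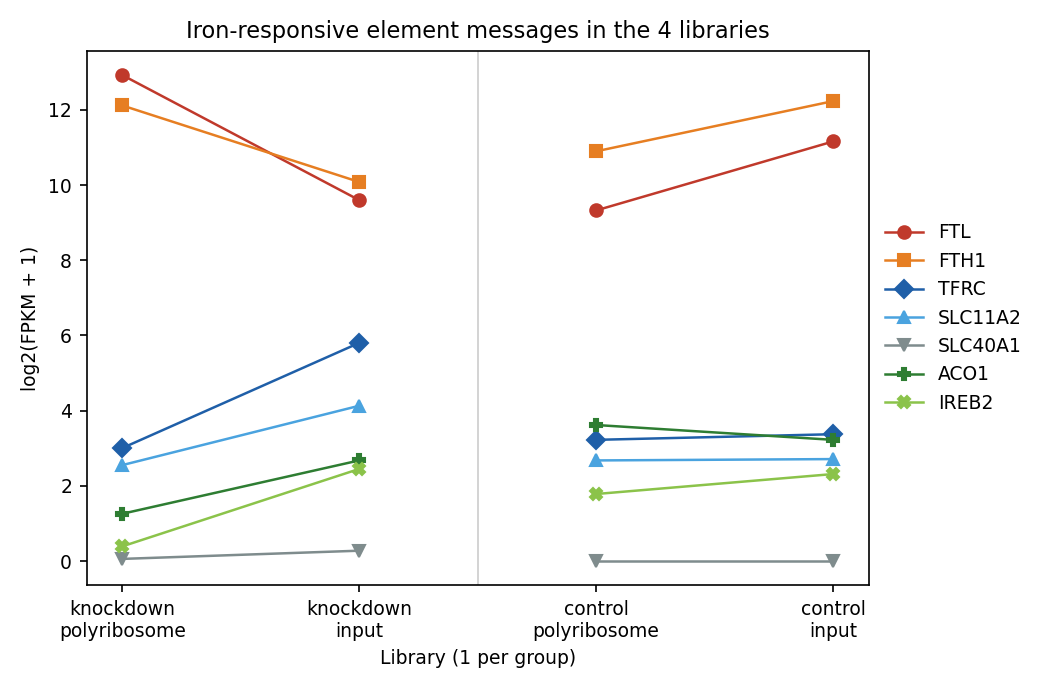
Level of the 7 messages, as log2(FPKM + 1), in the 4 libraries, 1 point per library, with lines joining the fractions of the same cells. FTL and FTH1 are higher on polyribosomes than in input in knockdown-labelled cells and lower in control cells, and TFRC and SLC11A2 stand highest in knockdown-labelled input.

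With translation efficiency taken as log2(polyribosome FPKM + 1) minus log2(input FPKM + 1), that of FTL was 3.33 in knockdown-labelled cells and -1.83 in control cells, a difference of 5.16. For FTH1 it was 2.03 in knockdown-labelled cells and -1.33 in control cells, a difference of 3.37. Among the 7379 genes whose mean FPKM over the libraries reached 5, these differences ranked 8th and 16th from the highest. In control cells alone, FTL and FTH1 stood at ranks 7370 and 7353, among the lowest efficiencies, where 0.759% of genes were at least 2-fold lower on polyribosomes than in input. In knockdown-labelled cells they stood at ranks 2 and 38, where 8.62% were at least 2-fold higher, and TFRC, SLC11A2 and ACO1 were among the 28.8% at least 2-fold lower. In the authors' deposited table, which adds 5 to each FPKM, the efficiency ratio of FTL was 9.98 in knockdown and 0.282 in control cells, and that of FTH1 4.09 and 0.397.

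The chains did not keep one proportion. FTL stood to FTH1, in FPKM, as 1.75 in knockdown-labelled polyribosome RNA and 0.716 in knockdown-labelled input, against 0.336 and 0.475 in the control fractions. The ratio was thus 5.22-fold higher on polyribosomes and 1.51-fold higher in input of knockdown-labelled cells. The light chain was the more abundant in knockdown-labelled polyribosome RNA, and the heavy chain in each of the other libraries. Together the chains took 1.95% of all FPKM in knockdown-labelled polyribosome RNA and 0.346% in knockdown-labelled input, against 0.451% and 1.22% in control. GENCODE 29 lists 16 pseudogenes named after FTL and 25 named after FTH1, and how the authors' counting treated reads shared with them is not given in the sources used here, so both levels are uncertain to that extent.

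TFRC, which takes up iron bound to transferrin, was at 7.02 FPKM in polyribosome and 54.8 FPKM in input RNA of knockdown-labelled cells, against 8.34 and 9.36 FPKM in control cells. The knockdown-labelled input stands alone, and the other 3 values lie close together. SLC11A2, which carries iron out of endosomes and into enterocytes, was at 4.86 and 16.5 FPKM in knockdown-labelled cells, against 5.39 and 5.55 FPKM in control cells. Its pattern has the same shape, with knockdown-labelled input above the other 3. Translation efficiency of TFRC was -2.80 in knockdown-labelled and -0.15 in control cells, a difference of -2.65. That of SLC11A2 was -1.58 in knockdown-labelled and -0.04 in control cells, a difference of -1.54. In control cells, polyribosome and input FPKM of both messages thus differed by less than 2-fold.

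SLC40A1, the exporter whose message carries a 5′ element like those of ferritin, had 0.04 and 0.21 FPKM in the knockdown-labelled fractions (polyribosome first) and was listed at 0 in both control libraries. It did not pass the filter of 5 FPKM, and no efficiency is read from it.

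ACO1, the message for IRP1, was at 1.39 FPKM in polyribosome and 5.39 FPKM in input RNA of knockdown-labelled cells, against 11.3 and 8.34 FPKM in control cells. Both knockdown-labelled values are below both control values, whichever fraction is which. Among all 7379 genes 31.3% had that order, and 26.1% the opposite one. Efficiency of ACO1 was -1.42 in knockdown-labelled and 0.39 in control cells, a difference of -1.81, or -0.99 with 5 FPKM added in place of 1. IREB2, the message for IRP2, was at 0.31 and 4.46 FPKM in knockdown-labelled cells, against 2.44 and 3.97 FPKM in control cells. Its mean of 2.80 FPKM is under the filter, its inputs are similar, and knockdown-labelled polyribosome RNA holds the lowest value. IREB2 stood to ACO1 as 0.223 and 0.827 in knockdown-labelled polyribosome and input RNA, against 0.216 and 0.476 in control.

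Of the 5 messages past the filter, 2 (FTL and FTH1) were at least 2-fold higher and 3 (TFRC, SLC11A2 and ACO1) at least 2-fold lower in translation efficiency in knockdown-labelled cells. By that limit 12.0% of the 7379 genes were higher and 30.1% lower. FTL was known to be high when the set was chosen. In the header's column order TFRC ranked 7101st of these 7379 from the highest, ACO1 6211th and SLC11A2 5874th. The median over the 5, which is the value of SLC11A2, was -1.54, beside -0.12 over all genes. With the knockdown columns exchanged it was 1.02, the value of ACO1, beside -0.05.

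**Figure D2:**
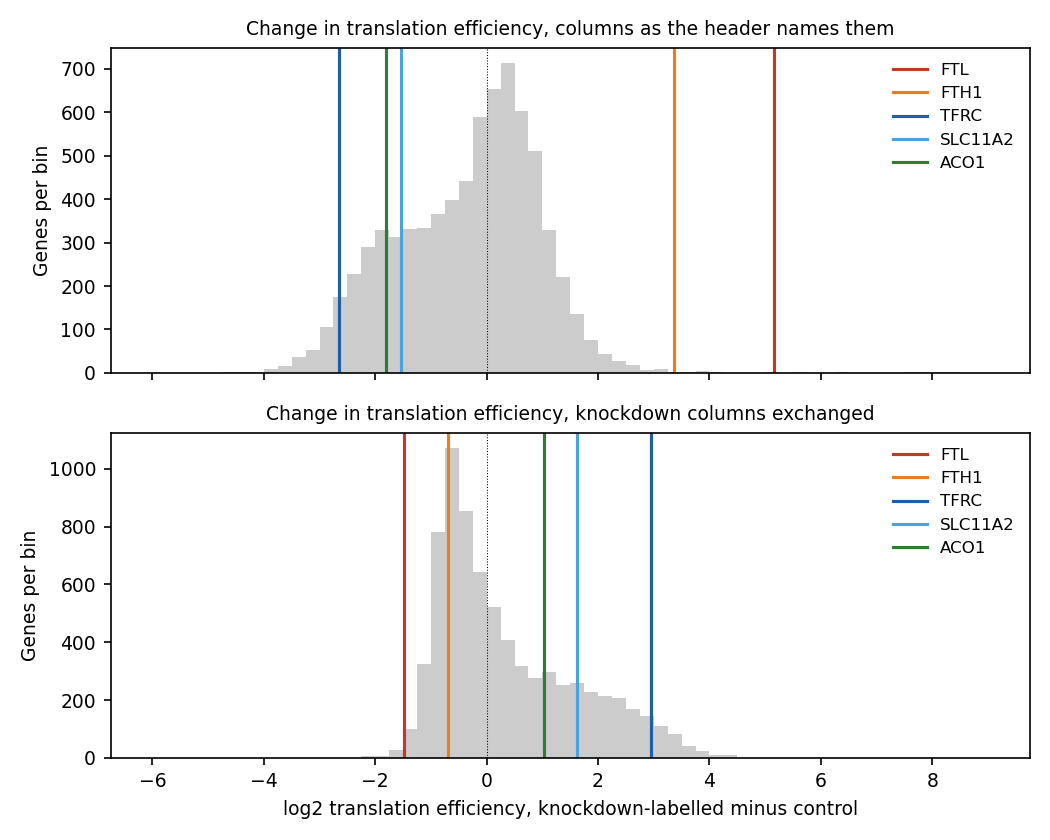
Histogram of the change in log2 translation efficiency (knockdown-labelled minus control) over 7379 genes, in bins of genes, with lines at the 5 members past the filter. The upper panel uses the header's column names and places FTL at 5.16 and TFRC at -2.65, and the lower panel exchanges the knockdown columns and places them at -1.49 and 2.95.

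In input RNA the 2 ferritin messages were lower and the 2 importers higher in knockdown-labelled than in control cells. The log2 difference was -1.56 for FTL and -2.15 for FTH1, and 2.43 for TFRC and 1.42 for SLC11A2, while ACO1 was at -0.55 and IREB2 at 0.14. As plain ratios of FPKM, TFRC was 5.85-fold and SLC11A2 2.97-fold of control, and FTL and FTH1 were 0.339-fold and 0.225-fold. Beyond 2-fold, 13.2% of all genes were higher and 14.4% lower. FTH1 stood to TFRC as 19.8 in knockdown-labelled input and 514 in control input. In such bulk RNA, fewer cells with a message and less message per cell cannot be told apart.

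On polyribosomes the differences were 3.60 for FTL and 1.22 for FTH1, with FTL at 12.2-fold and FTH1 at 2.33-fold of control. TFRC was at -0.22 and SLC11A2 at -0.12, so their polyribosome FPKM was 0.842-fold and 0.902-fold of control although their input was higher. Relative to the all-gene median of -0.28 both turned positive, at 0.06 for TFRC and 0.16 for SLC11A2. ACO1 was at -2.36 and IREB2 at -1.39. Beyond 2-fold, 16.7% of all genes were higher and 32.9% lower here. FTH1 stood to TFRC as 633 in knockdown-labelled and 229 in control polyribosome RNA.

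The order of the knockdown columns decides which way these messages point. With them exchanged, as the second line of column names has it, the efficiency of FTL in knockdown-labelled cells was -3.33 and its difference from control -1.49, and FTH1 was at -2.03 and -0.70. Ferritin was then low on polyribosomes in both kinds of cells. TFRC was at 2.80 and SLC11A2 at 1.58 in knockdown-labelled cells, with differences from control of 2.95 and 1.61, and ACO1 differed by 1.02. In that order 27.8% of all genes were higher in efficiency beyond 2-fold and 6.29% lower, and within knockdown-labelled cells 28.8% were higher on polyribosomes and 8.62% lower. Input RNA then differed by 1.77 for FTL, -0.11 for FTH1, -0.37 for TFRC and -0.16 for SLC11A2, so neither ferritin message was 2-fold lower and neither importer was higher. Beyond 2-fold, 15.9% of all genes were then higher in input and 31.8% lower. Polyribosome RNA differed by 0.28 for FTL, -0.81 for FTH1, 2.58 for TFRC and 1.45 for SLC11A2, where 12.7% of all genes were higher beyond 2-fold and 14.0% lower. ACO1 was lower in both fractions in either order, at -1.97 in input and -0.94 on polyribosomes after the exchange.

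Efficiency changes also ran with transcript length. The ferritin messages are short, 878 bases for FTL and 1229 for FTH1, and TFRC, SLC11A2 and ACO1 measure 5111, 4164 and 7466 bases. Among 459 genes with transcripts of up to 1000 bases, the median change was 0.43, with 26.4% at least 2-fold higher and 10.2% lower. Among 1800 genes with transcripts over 4000 bases it was -0.55, with 6.0% higher and 40.6% lower. FTL at 5.16 and FTH1 at 3.37 stand above the medians of their length classes, 0.43 and, for 1000 to 2000 bases, 0.06, and the long members lie within the cloud of long messages. With the knockdown columns exchanged, the median was -0.48 for transcripts of up to 1000 bases, with 6.75% higher and 15.0% lower, and 0.51 for those over 4000 bases, with 40.6% higher and 1.5% lower. FTL at -1.49 and FTH1 at -0.70 were then below the medians of their classes, -0.48 and -0.34. With a trend on GC content and length removed, FTL was at 4.32, FTH1 at 3.37, TFRC at -1.28, ACO1 at -1.06 and SLC11A2 at -0.42, and the polyribosome differences of TFRC and SLC11A2 turned to 1.04 and 0.88.

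**Figure D3:**
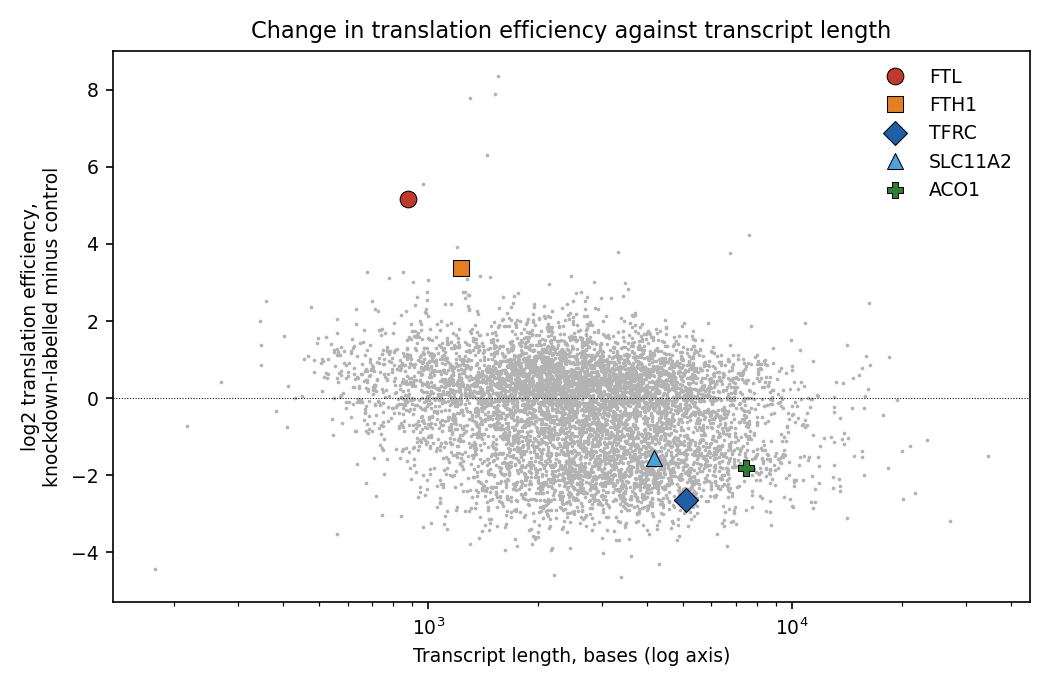
Change in log2 translation efficiency against transcript length in bases (log axis), 1 grey point per gene, with the 5 members past the filter marked. The columns are as the header names them. FTL at 878 bases and FTH1 at 1229 bases lie at 5.16 and 3.37, and TFRC, SLC11A2 and ACO1 lie among the many long messages below 0.

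Genes with the most similar profile were sought by the Euclidean distance between centred log2(FPKM + 1) values over the 4 libraries, among 5624 candidates with a mean of at least 10 FPKM. This distance does not depend on which column is which. Nearest to FTL were SEPW1, a selenoprotein, at a distance of 0.97, LSM10 of the U7 snRNP at 0.99, the guanylate kinase GUK1 at 1.02, the ribosomal protein RPS29 at 1.03 and TMEM134 at 1.18. FTH1 was the 79th nearest to FTL, at 1.78, whereas FTL was only the 1888th nearest to FTH1 at that same distance. Nearest to FTH1 were the sialyltransferase ST6GALNAC6 at 0.27, the RNA-binding protein PCBP4 at 0.37, C16orf74 at 0.38, BRI3 at 0.39 and PRELID1, a mitochondrial lipid transfer protein, at 0.43. FTH1 therefore had closer neighbours than FTL did. Nearest to TFRC were the interferon-induced IFIT1 at 0.19 and IFIT3 at 0.46, the lamin B receptor LBR at 0.20, the paraoxonase PON2 at 0.30 and NUCKS1 at 0.46. IFIT1 was at 6.0 and 49.3 FPKM in knockdown-labelled polyribosome and input RNA, against 6.17 and 7.29 FPKM in control.

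EPAS1, another message described with a 5′ element, encodes HIF-2alpha and passed the filter. It was at 22.3 and 55.4 FPKM in knockdown-labelled polyribosome and input RNA, against 14.4 and 13.8 FPKM in control, an efficiency change of -1.33, or 1.22 with the knockdown columns exchanged. Besides ferritin, 4 genes past the filter matched the hairpin pattern in the 5′ untranslated region, and they are named after their values were seen. The RNA-editing enzyme ADAR was at -1.87, the purine synthesis enzyme GART at -1.45, the splicing factor PRPF18 at -2.33 and the cytokine CSF1 at 0.37. With the columns exchanged, ADAR was at 1.53, GART at 0.72, PRPF18 at 2.83 and CSF1 at -0.33. Besides TFRC, 26 genes past the filter matched in the 3′ untranslated region. Of these 10 were at least 2-fold lower in efficiency and 2 higher, beside 30.1% and 12.0% of all genes. Their median change was -0.25, or -0.10 with the columns exchanged. A match in letters does not show that IRP1 or IRP2 binds there.

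Genes of iron uptake, handling and export had a lower median efficiency change than all genes. Of 11 past the filter 5 were at least 2-fold lower and 0 higher, beside 30.1% and 12.0% of all genes, with a median of -0.69 beside -0.12. In the header's column order STEAP1, of the endosomal ferrireductase family, had the lowest value, -2.84. NCOA4, the receptor that delivers ferritin to the lysosome, was at -2.55, with 8.04 and 46.4 FPKM in knockdown-labelled polyribosome and input RNA against 32.5 and 29.02 FPKM in control. The highest were MCOLN1, a lysosomal cation channel, at 0.48 and PCBP1, an iron chaperone that loads ferritin, at -0.11. FBXL5, the sensor that marks IRP2 for degradation, was at -1.66 and is named after its value was seen. With the knockdown columns exchanged 5 of the 11 were instead at least 2-fold higher and 0 lower, beside 27.8% and 6.29% of all genes, with a median of 0.16 beside -0.05. STEAP1 was then at 1.5, NCOA4 at 2.23, FBXL5 at 1.83, PCBP1 at 0.13 and MCOLN1 at -0.83.

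Heme and iron-sulfur genes had median efficiency changes near 0. Of 11 heme genes, 1 was lower in efficiency beyond 2-fold and 0 were higher, beside 30.1% and 12.0% of all genes, with a median of 0.11 beside -0.12. The lower one was CPOX, which makes protoporphyrinogen, at -1.53, and BLVRA, a biliverdin reductase, followed at -0.93. UROS at 0.47 and PPOX at 0.45, both enzymes of heme synthesis, were the highest. With the columns exchanged 1 was higher and 0 lower, with a median of -0.34 beside -0.05 over all genes, and CPOX was at 1.23, BLVRA at -0.14, UROS at -0.27 and PPOX at -0.70. In input RNA the heme genes at least 2-fold lower included PPOX at -1.27, ALAS1, the first enzyme of the pathway, at -1.18 and BLVRA at -1.03, of which ALAS1 is named after its value was seen. Of 27 genes of iron-sulfur cluster assembly and mitochondrial iron, 4 were higher and 4 lower in efficiency beyond 2-fold, beside the same 12.0% and 30.1% of all genes, with a median of 0.03. CISD3, a mitochondrial iron-sulfur protein, was at 1.40 and the cytosolic scaffold NUBP2 at 1.18. HSPA9, the mitochondrial HSP70, was at -2.84 and NFU1, which passes clusters to target proteins, at -1.97. With the columns exchanged the counts were again 4 higher and 4 lower, beside 27.8% and 6.29% of all genes, with a median of -0.18. CISD3 was then at -1.28, NUBP2 at -1.05, HSPA9 at 2.44 and NFU1 at 1.24.

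**Figure D4:**
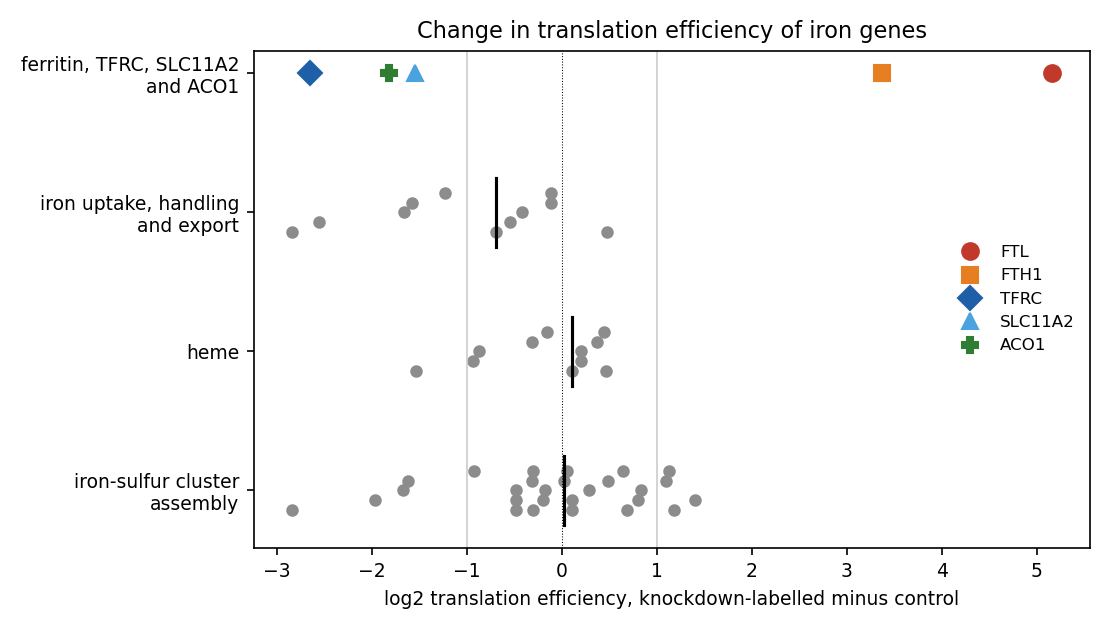
Change in log2 translation efficiency (knockdown-labelled minus control) of the 5 members past the filter and of 3 lists of iron genes, 1 point per gene, with black bars at list medians and grey lines at 2-fold. In the header's column order, as drawn, FTL at 5.16 and FTH1 at 3.37 lie to the right of every other iron gene drawn, the highest of which is CISD3 at 1.40. With the knockdown columns exchanged they are at -1.49 and -0.70, to the left of HSPA9 at 2.44 and NCOA4 at 2.23.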

How the data were processed

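The authors deposited 1 table of FPKM per gene symbol for the 4 libraries, rounded to 0.01, and a translation efficiency ratio per gene. Per the labels this ratio divides polyribosome by input FPKM, and it is met to within 5e-10 when 5 is added to each. The submitters' processing notes name TopHat, hg19 and GRCh37. The library kit was stranded, per the labels' protocols. For the strand setting, counting tool and annotation, the sources used here name none.

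Differences were taken between log2(FPKM + 1) values, which understates the change of low genes. With 1 library per group nothing was tested, and a difference of at least 2-fold was counted. Counts cover the 7379 genes whose mean FPKM reached 5. Length, GC content and hairpins came from 1 protein-coding transcript per gene in GENCODE 29, with a value for 7158 of the 7379 genes (97.0%). The trend was quadratic in GC content and log2 length. Scripts were tested on simulated data and ran in Python 3.11.15 with numpy 2.4.6 and pandas 2.3.3.

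The genes named by rule are the 7 members, NSUN6, 4 epithelial markers, the 5 nearest profiles of FTL, FTH1 and TFRC, and up to 2 highest and 2 lowest genes by efficiency change of each iron list. Others, among them the hairpin matches, FBXL5, ALAS1 and the remaining epithelial markers, were named after their values were seen. Members and lists were chosen with earlier results of these data known.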

Additional observations from a re-analysis of the deposited data

Results flagged for a closer look

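In the header's column order, the polyribosome and input FPKM of 3 messages stood in opposite order in knockdown-labelled and control cells. The difference in log2 ratio was 5.16 for FTL, 3.37 for FTH1 and -1.81 for ACO1. For a further 3 the difference between knockdown-labelled and control cells had opposite signs in polyribosome and input RNA, with a gap of -2.65 for TFRC, -1.54 for SLC11A2 and -1.53 for IREB2. With the knockdown columns exchanged, FTL, FTH1 and ACO1 had the same order of polyribosome and input FPKM in both kinds of cells. For TFRC, SLC11A2 and IREB2 both signs then turned and stayed opposite, with gaps of 2.95, 1.61 and 2.59. With 1 library per group none of these differences was tested.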

How the results depend on the processing

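No paired analysis was possible because each group has 1 library, and no library could be left out. Values were counted as kept where they stayed on the same side of 2-fold, and a change of sign within 2-fold was not counted. Centring on the median of all genes kept 35 of 35 member values so defined, but turned the polyribosome differences of TFRC from -0.22 to 0.06 and of SLC11A2 from -0.12 to 0.16. A pseudocount of 0.1 FPKM kept 32 and one of 5 FPKM 30. Removing the trend on GC content and length kept 25 and reversed 5, where reversed means a change of sign with either value beyond 2-fold. Exchanging the knockdown columns kept only 4 and reversed 20, with control efficiencies, which it cannot change, left out.

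With the knockdown columns exchanged, the efficiency change was -1.49 for FTL, -0.70 for FTH1, 2.95 for TFRC, 1.61 for SLC11A2, 1.02 for ACO1 and 2.59 for IREB2. Polyribosome minus input in knockdown-labelled cells was then -3.33 for FTL, -2.03 for FTH1, 2.80 for TFRC, 1.58 for SLC11A2, 1.42 for ACO1 and 2.06 for IREB2. The input difference was 1.77 for FTL, -0.37 for TFRC, -0.16 for SLC11A2 and -1.92 for IREB2. The polyribosome difference was -0.81 for FTH1, 2.58 for TFRC, 1.45 for SLC11A2 and 0.67 for IREB2. Of the 5 members past the filter, 1 was at least 2-fold lower in efficiency, beside 6.29% of all genes. In input 1 was lower and 1 higher by that limit, beside 31.8% and 15.9%. On polyribosomes 0 were lower, beside 14.0%. These member values follow from the exchange itself.

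With GC content and length removed, SLC40A1, which is at or near 0 FPKM, was at 1.06 for polyribosome minus input and 1.01 for the efficiency change. IREB2 was at 0.27 for the efficiency change and 0.31 on polyribosomes, and TFRC was at 1.04 on polyribosomes. In knockdown-labelled cells 1 member was then at least 2-fold lower on polyribosomes than in input. Before the trend was removed, 3 members and 28.8% of all genes were. The cause of these shifts was not tested. With a filter at 1 FPKM or none IREB2 enters, and 2 members were at least 2-fold lower in polyribosome RNA and 4 in the efficiency change. On polyribosomes relative to input of knockdown-labelled cells 4 were lower. At the filter of 5 FPKM the shares of all genes were 32.9%, 30.1% and 28.8%, in that order. The unknown depth limits what can be said of messages under a few FPKM.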
